A study of Mus musculus with 4 samples.

Results

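A stretch of chromosome 4 around Prkaa2, the gene that was knocked out, was examined site by site to ask how far transcript start sites next to the targeted locus differed between knockout and wild-type muscle. The stretch reached 30 Mb to either side of Prkaa2 (75029649 to 135109898 of chromosome 4, genome build GRCm38), and every start site in it was taken except those of Prkaa2 itself. It held 967 of the 42207 sites in the table, of which 31 had no gene and the others belonged to 234 genes. The rule used position and no read count, although the window itself was chosen with earlier results of these data known. On the side of lower coordinates (low side) lay 408 sites of 70 genes, and on the side of higher coordinates (high side) 559 sites of 164 genes.

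RNA came from the gastrocnemius, a calf muscle, of adult male C57BL/6 mice. The KO group was AMPKα2-/-, 2 animals with 1 library each, and the WT group was 2 wild-type controls with 1 library each. The p-values of the count tests therefore rest on 2 animals a group, and these tests estimate the spread of a site partly from other sites. As described for these mice, the KO allele lacks part of the catalytic domain of AMPKα2. The strain origin of the DNA around the gene was not given in the sources used here. Whole transcriptome start site sequencing, or WTSS-seq, was used for each library. In it, RNA depleted of ribosomal RNA is copied with template switching, so that a read begins where an RNA begins. Nearby read starts were grouped into a site, called an alternative start site (ASS).

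Prkaa2 encodes AMPKα2, a catalytic part of the kinase AMPK, which muscle uses to sense a fall in cellular energy and to switch on glucose uptake and fat oxidation. A gene can have several start sites, and those inside introns or late exons may be alternative promoters or the ends of cut or recapped RNA. In a mouse with a targeted gene, neighbouring alleles are inherited together with the altered locus, so genes beside it are often looked at separately from genes elsewhere.

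Start sites that fell at an annotated promoter were few. Of the 967 sites, 24 (2.48%) lay between 250 bases before and 50 bases after a RefSeq start of their own gene, against 758 of all 42207 sites (1.80%). Promoters were available for 178 of the 234 genes of the window. Sites of the other genes, and those without a gene, could not be counted but remain among the 967. The promoters of 3 genes are shown because they carry the results below, with 100 bases before and the first 30 bases from the RefSeq start (sequence table of GRCm38.p6), on the strand of the gene, 5′ to 3′. Capitals mark the bases covered by the start site within the stretch shown. The sites of Zbtb8os and Uqcrh run past it, with 11 of 34 and 68 of 140 bases shown. The listed position of the Zbtb8os site, 129336001, lies beyond the letters. Zbtb8os (chr4:129335868-129335997, plus strand) held the one promoter site that was called different between KO and WT, Uqcrh (chr4:116075041-116075170, minus strand) held the promoter site with most reads, and Trim63 (chr4:134315020-134315149, plus strand) is a muscle gene that was lower in KO in the sum of its sites.
Zbtb8os: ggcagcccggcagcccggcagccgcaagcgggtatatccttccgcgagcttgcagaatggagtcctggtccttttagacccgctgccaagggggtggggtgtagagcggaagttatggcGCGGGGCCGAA
Uqcrh: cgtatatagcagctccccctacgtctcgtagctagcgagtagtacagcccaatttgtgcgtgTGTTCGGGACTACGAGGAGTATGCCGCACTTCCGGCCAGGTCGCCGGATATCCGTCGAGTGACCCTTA
Trim63: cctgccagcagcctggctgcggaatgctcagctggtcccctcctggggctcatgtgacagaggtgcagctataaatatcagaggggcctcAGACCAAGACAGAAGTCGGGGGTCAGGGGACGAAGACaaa

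In the letters shown, Trim63 had TATAAA beginning 31 bases before its start, Uqcrh had CCAAT beginning 52 bases before its start, and the stretch of Zbtb8os held none of the 4 motifs searched on both strands, which were these and the GC box GGGCGG and the E-box CACGTG. The whole 300-base promoter windows of RefSeq were available for 178 of the 234 genes (230 windows). TATAAA was found in 4.35% of these and in 13.6% of all 32851 windows of the RefSeq table, CCAAT in 43.0% and 37.4%, GGGCGG in 62.2% and 35.7%, and CACGTG in 7.83% and 7.15%. Among the 13 windows of 11 genes with a called site, 1 held TATAAA, 9 held CCAAT, 10 held GGGCGG and 0 held CACGTG. A match in these letters is a description of the sequence and was not read as a bound site.

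Library totals lay between 1300069 and 2900279 reads, with more in each KO library than in either WT library. Below 3 reads, equal to 1.03 to 2.31 RPM (reads-per-million of the library) in these libraries, a site was not told from 0. This floor and the binomial intervals given here cover counting error alone, since PCR copies were not told from separate molecules. Of all reads, sites around Prkaa2 took 1.10% and 0.943% in KO, against 0.965% and 0.808% in WT. The difference of 0.137 percentage points between the group means had an exact permutation p of 0.667 (two-sided, where 2 against 2 libraries cannot give less than 0.333). At least 1 read was seen at 88.7% and 82.0% of these sites in the KO libraries and at 73.0% and 74.1% in the WT libraries. The whole table had 89.3% and 84.2% in KO against 74.4% and 73.3% in WT.

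Prkaa2 was looked at first as the check of the knockout. Its 19 sites held 244 and 209 reads in KO against 109 and 149 reads in WT, or 149 and 183 normalized counts against 153 and 186, a log2 fold change (KO over WT) of -0.03 with a standard error (SE) of 0.50 and a DESeq2 adjusted p of 0.994. Summed reads of the gene therefore did not tell the genotypes apart. At the intronic site 105047713, KO had no read and WT had 19 and 4, and one at 105055569 had 0 in KO against 5 and 8 in WT. Other sites went the opposite way, with 11 and 10 reads in KO and none in WT at 105058497, 3 and 12 and none at 105058220, 10 and 0 and none at 105103115, 13 and 19 against 2 and 1 at 105028220, and 8 and 5 against 1 and 0 at 105062888. The 6 sites tested had an adjusted p of 1.00 each.

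The muscle origin of the samples was visible in their markers. All 10 skeletal muscle genes of the marker list had sites and were tested, with 37023 and 37987 summed RPM in KO against 32914 and 42821 in WT. Adipocyte markers (6 of 7 with a site) summed to 3627 and 1812 RPM in KO against 3534 and 2201 in WT, which overlapped. Fibroblast markers (6 of 6, with 1 of 5 tested at an unadjusted p under 0.05) summed to 1463 and 1059 in KO against 1738 and 1582 in WT, with both KO libraries under both WT libraries. Blood markers summed to 15.9 and 12.2 in KO against 11.5 and 8.29 in WT, with both KO libraries above both WT libraries and no site for Hba-a2, Hbb-bs and Hbb-bt. Endothelial markers summed to 26.2 and 45.6 in KO against 40.0 and 37.0 in WT. Leukocyte markers (5 of 6 with a site, Cd68 without) were at 50.7 and 55.6 RPM in KO and at 175 and 110 in WT, again with both KO libraries under both WT libraries, and 0 of the 3 tested were called, with 1 at an unadjusted p under 0.05. In none of these lists was a gene called by DESeq2 or by edgeR. Their part in the results below was not tested, and in whole muscle fewer cells of a type and less RNA per cell cannot be told apart.

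Among the 967 sites, 234 had enough reads to be tested (a mean normalized count above 8.76), and they lay in 113 genes. At a DESeq2 adjusted p under 0.1 over the whole table, 15 were called (DE-ASSs), 8 higher and 7 lower in KO. That was 6.41% of the tested sites (exact 95% binomial interval 3.63% to 10.4%), beside 357 of 11112 tested sites in the whole table, or 3.21%. By direction, the table as a whole had 2.33% of tested sites higher and 0.882% lower in KO, beside 8 and 7 of 234 here. The rest of chromosome 4 had 14 of 305 tested sites called (4.59%). Among whole autosomes, the share ran from 1.51% on chromosome 7 to 5.79% on chromosome 8. Sites of a gene are not independent of each other, so these shares are a description and were not tested against one another.

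**Figure D1:**
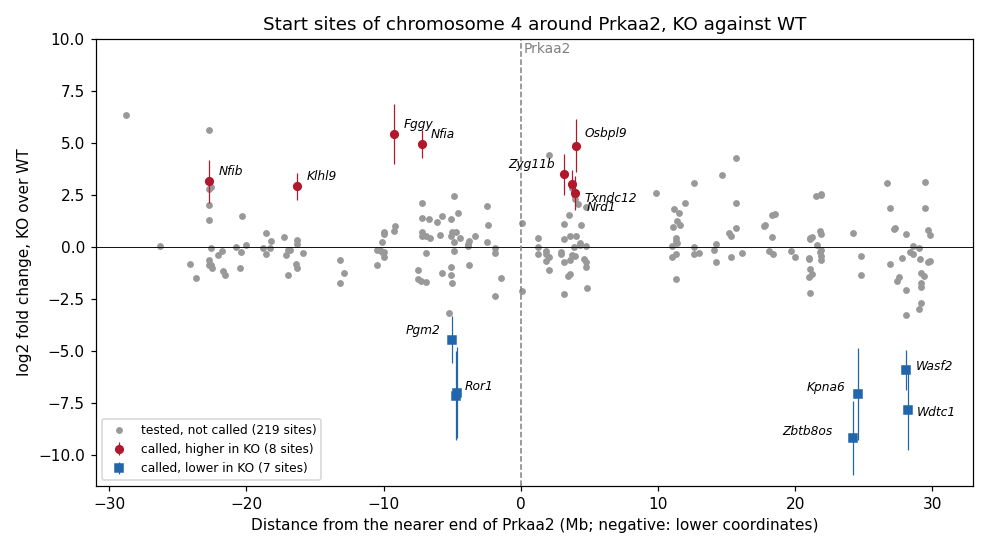
Each point is 1 of the 234 tested start sites, with its distance from the nearer end of Prkaa2 in Mb on the horizontal axis and its log2 fold change (KO over WT) on the vertical axis. Red circles and blue squares are called sites with bars of 1 SE. Those higher in KO lie between -22.7 and 4.01 Mb, and all 4 called sites beyond 20 Mb on the high side are lower in KO. Of these 4, Zbtb8os and Kpna6 lie where an alternate scaffold carries a second copy of some genes, and scaffold reads are not drawn.

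The 8 up-regulated sites lay in Nfib, Klhl9, Fggy, Nfia, Zyg11b, Txndc12, Nrd1 and Osbpl9. A pair of transcription factors of the nuclear factor I family, which bind DNA as dimers and act in the development of several tissues, had 1 each. An intronic site of Nfia (97791040 to 97791084, 7.24 Mb below Prkaa2) had 918 and 428 reads in KO against 15 and 10 in WT, where the log2 fold change was 4.94 (SE 0.69, adjusted p by DESeq2 6.27e-09). An intronic site of Nfib (82377764 to 82377788, 22.7 Mb below) had 169 and 41 reads in KO against 9 and 4 in WT, a log2 fold change of 3.14 (SE 1.03, adjusted p 0.0843). Both KO libraries stood above both WT libraries at each of these sites. A second Nfib site, within a transcript at 82293259 to 82293270, had 61 and 23 reads in KO against 0 and 1 in WT and missed the threshold at an adjusted p of 0.102.

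Fggy encodes a kinase of the carbohydrate kinase family. Its called site, intronic at 95816365 to 95816394, had 100 and 52 reads in KO against 2 and 0 in WT. Both WT counts were under the floor of 3 reads, so the site was at least 14.7-fold higher in KO (adjusted p 0.0144). This bound, set against 3 reads in each WT library, was 11.9-fold without KO replicate 1. Klhl9, a substrate adaptor of a cullin ubiquitin ligase, had 393 and 714 reads in KO against 44 and 50 in WT at a site within its transcript (88719071 to 88719135), where the log2 fold change was 2.90 (SE 0.67, adjusted p 0.00244). The Klhl9 site was the one with the closest WT replicates, at 58.7 ± 1.38 normalized counts (SD, n = 2), while its KO libraries gave 437 ± 253.

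The other 4 up-regulated sites lay close together, from 3.12 to 4.01 Mb above Prkaa2, in Zyg11b, Txndc12, Nrd1 and Osbpl9. Zyg11b, the substrate receptor of another cullin ubiquitin ligase, had 164 and 94 reads in KO against 11 and 2 in WT (108232058 to 108232069, within a transcript), a log2 fold change of 3.48 (SE 0.98, adjusted p 0.0249) that was 5.35 without WT replicate 1. Txndc12, a thioredoxin-like protein of the endoplasmic reticulum, had 1885 and 745 reads in KO against 115 and 64 in WT at an intronic site (108847417 to 108847453), a log2 fold change of 3.03 (SE 0.65, adjusted p 5.57e-04). In both genes the KO and WT libraries did not overlap. Nrd1, which encodes the metalloprotease nardilysin, had 171 and 964 reads in KO against 63 and 63 in WT (109028746 to 109028767, within a transcript). Its log2 fold change of 2.58 (SE 0.82, adjusted p 0.0698) was 0.49 without KO replicate 2, so 1 library decided it. Osbpl9, a lipid transfer protein of the oxysterol-binding family, had 22 and 189 reads in KO against 1 and 4 in WT at an intronic site (109115369 to 109115376), and its log2 fold change of 4.86 (SE 1.27, adjusted p 0.0121) was 2.24 without KO replicate 2.

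The 7 down-regulated sites were in Pgm2, Ror1, Zbtb8os, Kpna6, Wasf2 and Wdtc1. Pgm2 encodes a phosphoglucomutase, which interconverts glucose 1-phosphate and glucose 6-phosphate on the way into and out of glycogen. Its called intronic site (99982275 to 99982277, 5.05 Mb below Prkaa2) had 2 and 5 reads in KO against 62 and 33 in WT, a log2 fold change of -4.48 (SE 1.13, adjusted p 0.00866). Ror1, a receptor tyrosine kinase-like protein of the Wnt pathway, had 2 called intronic sites, at 100288332 to 100288334 and at 100351894 to 100351901. At the first, KO had no read and WT had 19 and 12 (at least 8.70-fold lower, adjusted p 0.0441), and at the second, KO had none and WT had 11 and 18 (at least 7.84-fold lower, adjusted p 0.0625).

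The remaining 4 lay more than 20 Mb above Prkaa2. Wasf2, a subunit of the WAVE complex that drives actin branching, had 5 and 3 reads in KO against 210 and 68 in WT at an intronic site (133179732 to 133179736), a log2 fold change of -5.94 (SE 0.96, adjusted p 5.90e-07). An intronic site of Wdtc1, a substrate receptor of a cullin ubiquitin ligase with a role in fat storage, had 0 reads in KO against 13 and 39 in WT (133322607 to 133322639, at least 13.8-fold lower, adjusted p 0.00815). Zbtb8os, which works with the ligase that joins the pieces of a tRNA after splicing, had 0 reads in KO against 18 and 121 in WT at the promoter site shown above (129335987 to 129336020), at least 36.0-fold lower (adjusted p 1.02e-04). Kpna6, an importin that carries proteins into the nucleus, had 0 reads in KO against 6 and 25 in WT at an intronic site (129667754 to 129667767), at least 8.12-fold lower (adjusted p 0.0625). These bounds were set against 3 reads in each KO library and leaned on WT replicate 2, without which they were 10.7-fold for Zbtb8os, 7.74-fold for Wdtc1 and 3.57-fold for Kpna6. The sites of Zbtb8os and Kpna6 lay where an alternate scaffold of the genome build carries a second copy of some genes. Their bounds cover reads on chromosome 4 alone. On the scaffold, Kpna6 had 10 and 3 reads in KO against 0 in both WT libraries. At 5 of the 7 down-regulated sites, no read was found in either KO library on chromosome 4, although these were the deeper libraries.

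**Figure D2:**
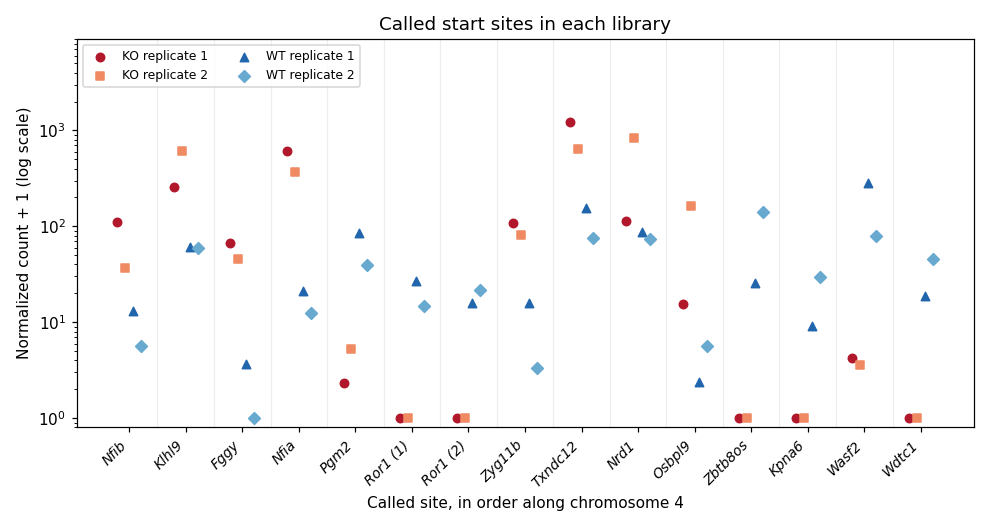
Normalized count plus 1 (log scale) in each of the 4 libraries for the 15 called sites, in their order along the chromosome; a value of 1 on the axis stands for 0 reads. Both KO libraries lie above both WT libraries at 8 sites and below them at 7, and Nrd1 and Osbpl9 show the widest gap between KO replicates.

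The quasi-likelihood test of edgeR called 4 of the 15 sites and no others of the window, those of Nfia (adjusted p 0.0319), Wasf2 (0.0389), Zbtb8os (0.0647) and Wdtc1 (0.0686), and it did not test the Kpna6 site. That was 1.66% of 241 sites that edgeR tested here, against 0.712% of those it tested in the whole table. With each library left out in turn, DESeq2 called 6 sites of the window without KO replicate 1, 2 without KO replicate 2, 15 without WT replicate 1 and 6 without WT replicate 2, of which 6, 2, 8 and 5 were among the 15. Nfia and Wasf2 were called in each of these 4 fits (largest adjusted p 0.00577 and 0.0485), in which a group of 1 library is assumed to vary like the other group. Size factors from reads outside mitochondrial and ribosomal RNA gave 6 higher and 8 lower calls, in place of 8 and 7, and moved the median log2 fold change of all tested sites from 0.10 to -0.09.

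The called sites were compared with the other sites of their genes. In Nfia the called site took 20.3% and 25.5% of the gene's reads in KO against 1.04% and 0.533% in WT, and the other 39 sites together gave 2366 and 1078 normalized counts in KO against 1945 and 2157 in WT. In Klhl9 the called site took 9.64% and 21.2% in KO against 1.83% and 4.33% in WT, and the other sites gave 2416 and 2286 in KO against 3196 and 1276 in WT. In Wasf2 the called site took 5.32% and 6.38% in KO against 82.7% and 51.5% in WT, and the other sites gave 58.4 and 38.0 in KO against 59.7 and 73.9 in WT. The other sites of these 3 genes overlapped between the groups, except in Wasf2, where both KO values lay under both WT values. Txndc12 was different in kind, as its called site held 95.4% and 93.2% of its reads in KO against 66.9% and 75.3% in WT. Over the 12 genes with other sites, the log2 ratio (KO over WT) of those other sites ran from -0.47 in Wasf2 to 0.96 in Wdtc1.

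Distance from Prkaa2 was then followed in steps. No site within 2.5 Mb was called, on either side, among 18 tested (0%, exact 95% binomial interval 0% to 18.5%), by DESeq2 or by edgeR, and 3 had an unadjusted p under 0.05. Between 2.5 and 5 Mb, 2 of 13 tested sites were called on the low side, both lower in KO, and 4 of 31 on the high side, all higher in KO. Between 5 and 10 Mb, 3 of 32 were called on the low side, 2 higher and 1 lower, and 0 of 1 on the high side. Between 10 and 20 Mb, 1 of 25 was called on the low side and 0 of 37 on the high side, where 3 had an unadjusted p under 0.05 and edgeR called 0 of 43. Between 20 and 30 Mb, 1 of 23 was called on the low side, higher in KO, and 4 of 54 on the high side, all lower in KO. The share did not fall steadily with distance, being 0% within 2.5 Mb, 9.68% of 62 within 5 Mb, 9.47% of 95 within 10 Mb and 6.37% of 157 within 20 Mb.

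**Figure D3:**
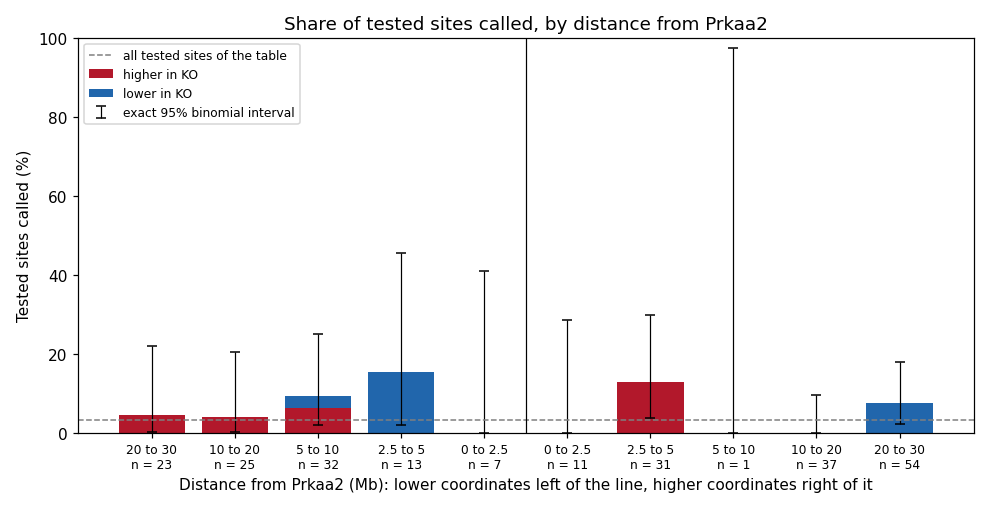
Share of tested sites that were called, in percent, by distance from Prkaa2 in Mb on the low side (left of the line) and the high side (right), with the number tested under each bar. Red marks sites higher and blue sites lower in KO, black bars are exact 95% binomial intervals, and the dashed line is the 3.21% of the whole table; the tallest bar, 15.4%, rests on 2 of 13 sites.

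The levels of the tested sites, called or not, leaned in different directions between steps on both sides of Prkaa2, with the high side given first. From 20 to 30 Mb, both KO libraries were below both WT libraries at 21 of 54 sites (38.9%) and above them at 5 (9.26%), whereas over all tested sites of the table the shares were 17.4% below and 23.0% above. Their median log2 fold change was -0.48, between -0.70 and -0.30 with each library left out in turn, against 0.10 over the table. From 10 to 20 Mb the picture was opposite, with 11 of 37 sites (29.7%) above and 2 (5.41%) below and a median of 0.42, which was 0.01 without KO replicate 2. On the low side, the median was 0.53 over 32 sites from 5 to 10 Mb, and 0.12 to 0.40 with each library left out. It was -0.17 from 10 to 20 Mb (-0.46 to 0.07) and -0.18 from 20 to 30 Mb (-0.38 to 0.84). Over the whole window, 20.5% of tested sites had both KO libraries above and 22.6% had both below, and the median was -0.05. Summed over sites, 18 of 31 tested genes from 20 to 30 Mb on the high side had a log2 fold change under 0 and 13 had one above 0. Their median was -0.39, against 0.01 over all tested genes. Of these 31 genes, 4 were called, each of them lower in KO, beside 45 called lower among 4688 tested genes of the table. Zbtb8os, among these 4, lay between 129307100 and 130359992, where an alternate scaffold of the genome build carries a second copy of some genes. Neither the gene counts nor the site shares of this step were computed without that interval.

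The genes nearest to Prkaa2 showed no called site. On the high side these were Plpp3, Usp24, Ttc4, Mroh7 and Ssbp3, and on the low side Gm12715, Gm12716, Oma1, Slc35d1 and Mier1. Plpp3, a phosphatase that clears lysophosphatidic acid, lay closest, with its first site 0.0504 Mb away and 17 sites in all. Its intronic site at 105174068 to 105174099 had 56 and 53 reads in KO against 63 and 242 in WT, a log2 fold change of -2.15 (SE 0.77, adjusted p 0.135). The KO replicates were alike and the WT replicates were not, and the log2 fold change was -1.10 without WT replicate 2 and -2.76 (adjusted p 0.0623) without WT replicate 1. Summed over its sites, Plpp3 had 108 and 123 normalized counts in KO against 150 and 395 in WT (adjusted p 0.412).

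Usp24, a deubiquitinase 1.21 Mb away, summed to 241 and 184 normalized counts in KO against 153 and 339 in WT. Ssbp3, a cofactor of LIM-domain transcription complexes, had 3 tested sites with log2 fold changes from -0.70 to -0.20 and adjusted p of 1.00. Mier1, a transcriptional repressor, had 205 and 76 reads in KO against 283 and 74 in WT, and its intronic site at 103131595 had 232 reads in WT replicate 1 and 1 in WT replicate 2. Replicates of a group differed more than the groups did at that site. Oma1, a protease of the mitochondrial inner membrane, had 39 and 24 reads in KO against 7 and 22 in WT over 6 sites, none with enough reads to be tested alone, and an adjusted p of 0.992 in sum. Slc35d1, a nucleotide-sugar transporter, had 5 and 0 reads in KO against 3 and 10 in WT, and Ttc4, a co-chaperone, had 4 and 4 in KO against 2 and 3 in WT. Gm12715 and Gm12716 had 1 site each, with 20 and 9 reads in KO against 17 and 32 in WT for the first and 4 and 5 against 2 and 4 for the second. Mroh7 had 11 and 0 reads in KO against 0 and 2 in WT. Gm12715 had an adjusted p of 0.894, and at 11 or fewer reads in every library a change in Slc35d1, Ttc4, Gm12716 or Mroh7 was not detectable at this depth.

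Sites present in one group alone were counted with a minimum of 10 reads in each library of that group. In the window, 4 of the 117 sites that reached the minimum in both WT libraries had 0 reads in both KO libraries (3.42%, exact 95% interval 0.939% to 8.52%), against 0.556% in the whole table and 0 of 143 on the rest of chromosome 4. They were the 2 Ror1 sites and those of Zbtb8os and Wdtc1. In the other direction, 2 of 195 sites (1.03%) had 0 reads in both WT libraries, against 2.00% in the whole table. These were intronic sites of Rlf, a zinc-finger protein (121210165 to 121210173, 21 and 14 reads in KO), and of Gm7534 (134200069 to 134200127, 17 and 11 reads in KO). Neither had an adjusted p from DESeq2, because their mean counts fell below the filter. With each library thinned to the smallest total, 4 of 108 sites were present in WT alone and 1 of 96 in KO alone.

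Part of chromosome 4 is represented again on an alternate scaffold of the genome build, NT_187023.1, as such scaffolds carry other versions of a chromosome segment. The genes with sites on it were Rbbp4, Tmem234, Dcdc2b, Txlna, Kpna6, Khdrbs1, Ptp4a2 and Zcchc17, and RefSeq places them from 129307100 to 130359992 of chromosome 4, 24.2 Mb or more above Prkaa2. Reads of KO and WT were divided unequally between the copies, with some reads of both groups on each. The 14 scaffold sites held 225 and 182 reads in KO against 16 and 5 in WT, and 13 of the 14 had no read in either WT library. The 15 chromosome 4 sites in the same interval held 51 and 60 reads in KO against 123 and 237 in WT, and 8 of them (53.3%) had no read in either KO library, against 24 of 952 (2.52%) outside the interval.

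By gene, Ptp4a2, a protein tyrosine phosphatase anchored at membranes, had its chromosome 4 reads in WT (28 and 21, against 0 and 0 in KO) and its scaffold reads in KO (29 and 63, against 0 and 0 in WT). With both copies summed it gave 17.7 and 55.1 normalized counts in KO against 39.3 and 26.2 in WT, and the log2 fold change was 0.15 (SE 0.87, adjusted p by DESeq2 0.992). Kpna6, whose chromosome 4 site was called, had 10 and 3 scaffold reads in KO against 0 in both WT libraries, and both copies summed to 6.11 and 2.62 in KO against 8.41 and 31.1 in WT. The groups of both genes, apart on either copy alone, lay closer once the copies were added.

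Khdrbs1, which encodes the RNA-binding protein Sam68, followed the pattern in part. Its scaffold sites held 34 and 21 reads in KO, and 16 and 5 in WT that all fell on 1 site at 1331249 of the scaffold. On chromosome 4 it had 2 and 9 reads in KO against 18 and 8 in WT, and one of its 3 sites there, at 129739899, had 2 and 8 reads in KO against 0 in WT. The sum of both copies did not differ beyond the spread (log2 fold change -0.40, SE 0.92, adjusted p 0.988).

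The other 5 genes had reads on the scaffold alone and in KO alone. Tmem234, a membrane protein, had 63 and 37 reads in KO against 0 in both WT libraries (DESeq2 adjusted p 0.00733, edgeR 0.0457 for the gene). The histone chaperone Rbbp4 had 8 and 3, Dcdc2b had 11 and 7, Txlna had 18 and 2 and Zcchc17 had 13 and 3, too few to be tested. A scaffold site with no gene, between those of Rbbp4 and Tmem234, had 39 and 43 reads in KO against 0 in WT (adjusted p 0.0189).

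Some genes of the interval had no scaffold site. Hdac1, a histone deacetylase, had 0 reads in KO against 5 and 7 in WT at its single site, and Zbtb8os, next to Rbbp4, was the gene called above. Sync, which encodes an intermediate filament protein of muscle, had 9.77 and 12.2 normalized counts in KO against 12.6 and 2.49 in WT, which overlapped, and Gm12966 had reads in all 4 libraries at each of its 3 sites. Bsdc1 had 10 and 0 reads in WT and 0 in KO at one site and 1 and 2 in KO against 2 and 5 in WT at the other. Whether the choice of copy in the mapping accounts for the calls of Zbtb8os and Kpna6 was not tested. Without the 15 sites of the interval, 13 of 229 tested sites of the window were called.

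**Figure D4:**
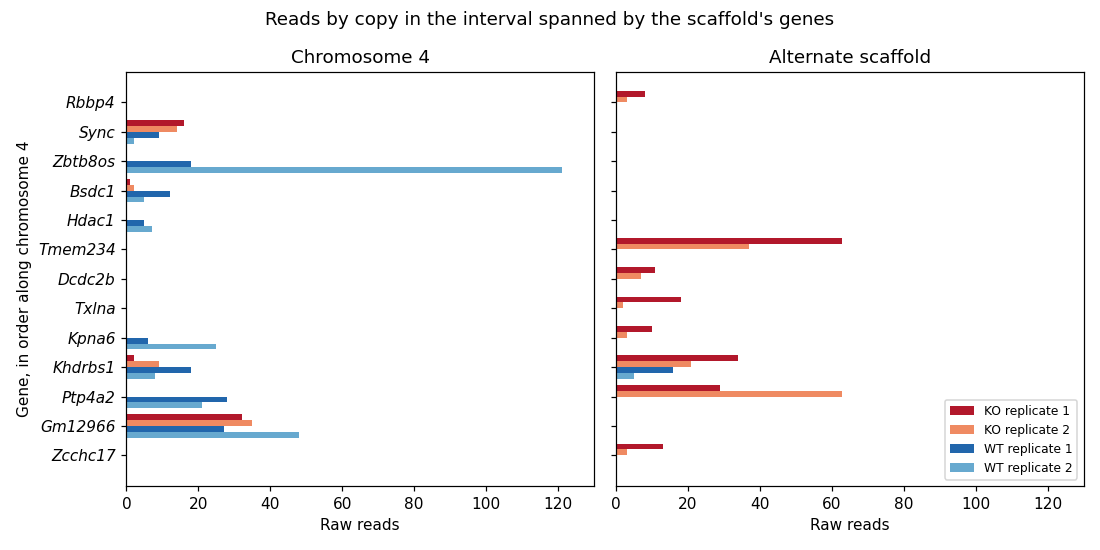
Raw reads of each gene of the interval in the 4 libraries, on chromosome 4 (left) and on the alternate scaffold (right); the scaffold site without a gene is not drawn. Ptp4a2 has 28 and 21 WT reads and no KO read on chromosome 4 and 29 and 63 KO reads and no WT read on the scaffold.

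When the sites sharing a gene symbol were added up, 6 of 112 tested genes of the window were called (5.36%), against 2.67% of 4688 tested genes. Txndc12 and Nfyc were higher in KO, and Thrap3, Trim63, Wasf2 and Zbtb8os were lower. Txndc12 had 1207 and 698 normalized counts in KO against 241 and 106 in WT, a log2 fold change of 2.46 (SE 0.52, adjusted p 4.06e-04). Nfyc, a subunit of the factor NF-Y that binds CCAAT boxes, had 188 and 567 in KO against 61.7 and 128 in WT, a log2 fold change of 1.99 (SE 0.61, adjusted p 0.0617) that was 0.99 without KO replicate 2. Wasf2 had 57.4 and 41.1 in KO against 356 and 164 in WT, a log2 fold change of -2.40 (SE 0.57, adjusted p 0.00420).

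Trim63 encodes MuRF1, a ubiquitin ligase of striated muscle that marks contractile proteins for breakdown during wasting. It had 29.3 and 38.4 normalized counts in KO against 101 and 169 in WT over 5 sites, a log2 fold change of -2.00 (SE 0.62, adjusted p 0.0620), and none of its 4 tested sites was called by itself. Its promoter site shown above had 29 and 17 reads in KO against 31 and 60 in WT (log2 fold change -1.72, SE 0.92, adjusted p 0.575). Thrap3, a protein of RNA processing and transcription, had 20.8 and 41.9 in KO against 125 and 142 in WT (log2 fold change -2.10, SE 0.64, adjusted p 0.0519). In both genes every KO library was below every WT library, but edgeR called neither (edgeR adjusted p 0.166 for Trim63 and 0.158 for Thrap3).

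The edgeR test called 3 of these 6 genes, namely Zbtb8os (0.0191), Txndc12 (0.0887) and Wasf2 (0.0887), where 0.883% of the genes it tested in the whole table passed. With each library left out in turn, DESeq2 called 3 genes of the window without KO replicate 1, 3 without KO replicate 2, 2 without WT replicate 1 and 3 without WT replicate 2, of which 3, 2, 2 and 3 were among the 6. Size factors from reads outside mitochondrial and ribosomal RNA gave 1 gene higher and 5 lower.

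Genes with many reads in the window mostly did not differ in sum. Uqcrh, a subunit of complex III of the respiratory chain, had 1168 and 1383 normalized counts in KO against 1458 and 1229 in WT, a log2 fold change of -0.08 (SE 0.40, adjusted p 0.992). Nearly all of its reads lay at the promoter site shown above, which spanned the annotated start (116074969 to 116075108) and had its listed position there. That site had 1911 and 1562 reads in KO against 1040 and 987 in WT. Klhl9 summed to 2489 and 2939 in KO against 3364 and 1439 in WT, and Nfia to 2763 and 1465 in KO against 2030 and 2338 in WT, with adjusted p of 0.992 for each. The groups of these 3 genes overlapped.

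Cmpk1, a kinase of pyrimidine nucleotides, had 1551 and 199 normalized counts in KO against 282 and 53.6 in WT. Its log2 fold change of 2.38 (SE 1.54, adjusted p 0.722) was 0.26 without KO replicate 1, 3.22 without KO replicate 2 (adjusted p 0.0160), 4.03 without WT replicate 1 and 1.61 without WT replicate 2. The small nucleolar RNA Snord99 had 593 and 1697 in KO against 558 and 771 in WT, and Nrd1 had 567 and 1466 in KO against 653 and 689 in WT (adjusted p 0.742 and 0.876). Fggy had 527 and 613 in KO against 316 and 329 in WT, and Zfyve9, which holds Smad proteins at endosomes, had 525 and 298 in KO against 206 and 227 in WT. Their log2 fold changes were 0.82 and 0.93, each with an adjusted p of 0.531, and the KO libraries stood above the WT libraries. Nfib had 414 and 326 in KO against 310 and 238 in WT (adjusted p 0.920).

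Whether sites of a gene moved unlike each other was tested as a change of use. Of 56 genes of the window with at least 2 sites of sufficient count, 4 passed an adjusted p of 0.1 in edgeR's diffSpliceDGE (Simes method), beside 38 of 2145 genes of the table (1.77%). These were Nfia (0.0270), Wdtc1 (0.0940), Pgm2 (0.0975) and Ror1 (0.0975). In Nfia, the called intronic site held 21.4% and 26.9% of the tested reads in KO against 1.08% and 0.558% in WT, while the main site, within a transcript, held 73.9% and 61.4% in KO against 94.2% and 88.8% in WT.

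In Pgm2, the called site held 0.694% and 2.18% in KO against 38.3% and 26.4% in WT, while another intronic site held 71.2% and 61.1% in KO against 30.2% and 24% in WT. In Ror1, the 2 called sites held no read in KO, and in WT one held 25.3% and 12.9% and the other 14.7% and 19.4%. Wdtc1 had 2 tested sites, one with 20 and 12 reads in KO against 2 and 2 in WT and the other with 0 in KO against 13 and 39 in WT, so that of the reads at these 2 sites, those of KO fell on the first and 86.7% and 95.1% of those of WT on the second. The gene sums of Nfia, Pgm2 and Ror1 did not pass the test (adjusted p 0.992 for each). Without KO replicate 2, Nfia alone passed for use (0.0603), and 0 genes passed without KO replicate 1, WT replicate 1 or WT replicate 2.

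**Figure D5:**
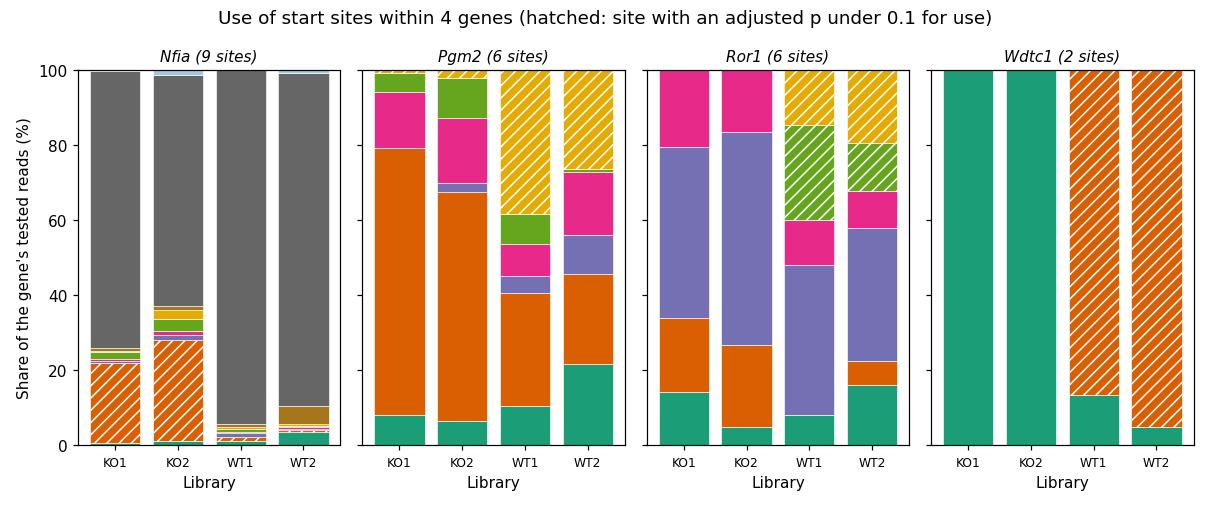
Share of the tested reads of a gene, in percent, that fell on each of its sites in each library (KO1 and KO2, WT1 and WT2), for the 4 genes with a change of use; 1 colour stands for 1 site, and hatching marks sites with an adjusted p under 0.1. The hatched site of Nfia is wide in KO (21.4% and 26.9%) and narrow in WT, and those of Pgm2, Ror1 and Wdtc1 are wide in WT.

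The genes of the window were also grouped by function, in lists chosen with earlier results of these data known. Beside the counts below, 2.33% of all tested sites were called higher and 0.882% lower in KO. Of all tested genes, 2.67% were called. Of the muscle and growth control list, 7 of 10 genes lay in the window with a site, with 0 of 11 tested sites called by DESeq2 or edgeR (0 at an unadjusted p under 0.05) and 1 of 5 tested genes called, Trim63. Macf1, a cytoskeletal linker, had 207 and 250 normalized counts in KO against 139 and 194 in WT (adjusted p 0.926), and Rragc, a Rag GTPase that reports amino acids to mTORC1, had 16.5 and 29.7 in KO against 30.9 and 27.4 in WT (adjusted p 0.992). The immediate early factor Jun had 28.7 and 46.3 in KO against 28.0 and 52.3 in WT. The list's median log2 fold change was -0.11 over genes and -0.24 over sites, against 0.01 over all tested genes and 0.10 over all tested sites.

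Of the energy metabolism and mitochondria list, 13 of 25 genes had a site in the window. One site rose (Fggy) and 1 fell (Pgm2) among 14 tested, 0 of 6 tested genes were called by DESeq2 or edgeR (0 at an unadjusted p under 0.05), and the median was -0.10 over genes and, of the other sign, 0.28 over sites. Scp2, a lipid carrier of peroxisomes, had 23.2 and 52.4 in KO against 54.7 and 43.6 in WT (adjusted p 0.983). Cpt2, which brings fatty acids into mitochondrial oxidation, had 9 and 0 reads in KO against 1 and 0 in WT, below what could be tested.

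The transcription and chromatin list had 15 of 21 genes with a site. Of 35 tested sites, 2 were higher in KO (Nfia and Nfib), and of 11 tested genes, Nfyc was higher and Thrap3 lower, with a median of -0.05 over genes and, of the other sign, 0.51 over sites. Hivep3, a zinc-finger protein, had 29.9 and 130 normalized counts in KO against 16.8 and 7.47 in WT and stood just outside the threshold at an adjusted p of 0.101. Arid1a, a subunit of the SWI/SNF remodeller, had 87.3 and 56.8 in KO against 104 and 85.9 in WT (adjusted p 0.954).

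The RNA processing and binding list had 16 of 21 genes with a site, 0 of 12 tested sites and 0 of 8 tested genes called by DESeq2 or edgeR (1 site and 1 gene at an unadjusted p under 0.05), and a median of -0.60 over genes and -0.02 over sites. Sfpq, a splicing factor of paraspeckles, had 364 and 270 in KO against 280 and 217 in WT (adjusted p 0.951), and Dnajc8 had 16.5 and 51.6 in KO against 137 and 64.8 in WT (adjusted p 0.442).

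Of the 20 genes of the trafficking and protein turnover list, 17 had a site. Of 38 tested sites, 5 were higher in KO (Klhl9, Nrd1, Osbpl9, Txndc12 and Zyg11b) and 0 lower, beside 2.33% and 0.882% of all tested sites, and the list was chosen with these calls known. Of 12 tested genes 1 was called (Txndc12), and the median was 0.45 over genes and 0.15 over sites. Faf1, a ubiquitin-binding protein 4.61 Mb above Prkaa2, had 237 and 213 in KO against 299 and 258 in WT (adjusted p 0.954), and Eps15, which acts in endocytosis, had 81.2 and 72.5 in KO against 63.1 and 33.6 in WT (adjusted p 0.911). The receptors and signalling list had 15 of 18 genes, 3 of 33 tested sites lower in KO (2 of Ror1 and 1 of Wasf2), 1 of 12 tested genes called (Wasf2) and a median of 0.09 over genes and 0.25 over sites. Pde4b, a cAMP phosphodiesterase 2.42 Mb below Prkaa2, had 310 and 205 in KO against 156 and 89.7 in WT, and its log2 fold change of 1.07 (SE 0.53) had an adjusted p of 0.493. Jak1, a cytokine receptor kinase, had 178 and 127 in KO against 167 and 169 in WT (adjusted p 0.992).

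By class code, 546 of the 967 sites (56.5%) were intronic and 324 (33.5%) lay within a transcript, against 49.8% and 37.0% of the whole table. Among the 15 called sites, 11 were intronic (73.3%) and 4 within a transcript (26.7%), and among the 357 called sites of the whole table the shares were 60.2% and 28.9%. Nfib had the most sites with 44, followed by Nfia with 40 and Pgm2 with 30, and 92 genes had a single site.

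Replicates of the window differed by a median of 0.89 on the log2 scale in KO against 0.92 in WT over tested sites, against 0.77 and 0.88 in the whole table. In 4 sites with at least 50 reads in a library, the replicates of a group differed by more than 20-fold. These were the Mier1 site named above (273-fold in WT), an intronic site of Nfyc at 120797826 (0 and 53 reads in KO), a site within a transcript of Klhl9 at 88720030 (859 and 31 reads in WT), and an intronic site of Ptprd at 76275256 (56 and 0 reads in KO). None of these 4 sites was called.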

How the data were processed

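Raw read counts per start site were deposited by the authors as one table of the 4 libraries, with genome position, gene symbol and Cuffcompare class code. Reads came from an Ion PGM sequencer after 20 PCR cycles without molecular identifiers, and the build was GRCm38.p5 per the labels. Aligner settings for these libraries were not given in the sources used here. Each site held 10 reads or more in all.

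KO and WT were compared across the whole table with the Wald test of DESeq2 1.42.0 (adjusted p under 0.1, as in the study), with edgeR 4.0.16 quasi-likelihood and diffSpliceDGE fits beside it, in R 4.3.3. DESeq2 gave an adjusted p to sites with a mean above 8.76 and to genes, summed by symbol, with a mean above 16.5. Tested on simulated counts of this size, DESeq2 made more false calls than its threshold allows and edgeR missed smaller changes at single sites, so a single call is uncertain. Named were Prkaa2, all called sites and genes, the 5 nearest genes on each side, the 10 with the highest mean count, genes with scaffold sites or changed use, and sites present in 1 group alone. Examples from the functional lists, sites just outside the threshold and those with discordant replicates were picked after their values were seen. The window, members, gene lists and marker lists were chosen with earlier results of these data known. Alternatives covered scaling, filters, thresholds, distance, the replicate block and leaving out each library, and those of the medians by distance and of the lower bounds were chosen after seeing the data. Results of one functional list and one marker list are not reported here.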

Additional observations from a re-analysis of the deposited data

How the results depend on the processing

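Against 15 called sites of the window, edgeR gave 4, edgeR with a replicate block 0, and leaving out each library between 2 and 15. Against 6 called genes, edgeR gave 3, an adjusted p under 0.05 gave 3, and leaving out each library gave 2 to 3. The share of called sites, 6.41%, was 0% within 2.5 Mb and 1.66% with edgeR. Sites present in KO alone numbered 24 at a minimum of 5 reads, 0 at 20 and 1 after thinning, in place of 2, and sites present in WT alone 9 at 5 reads and 0 at 20, in place of 4. Genes with a changed use of sites, 4, were 1 with the replicate block and 0 to 1 with each library left out. Same-numbered libraries came from different animals, and their deviations had a correlation of 0.0569 over 12055 sites, so the numbers were not taken to pair them. With the replicate block, DESeq2 called 10 sites and 5 genes of the window. The median log2 fold change of all tested sites ran from -0.01 to 0.23 with each library left out and was -0.09 with size factors from reads outside mitochondrial and ribosomal RNA, and that of the window ran from -0.09 to 0.13 and was -0.24. Over the 15 sites and their alternatives, 96 values kept their call, 69 lost it and 0 changed sign. Cases in which a site was filtered out or had no adjusted p, and so was not called, are not in these counts. The cause of these changes was not tested. In libraries of 1300069 to 2900279 reads, the median site of the window had 18.0 reads in all, so most sites were below what could be tested.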
